A study of Mus musculus with 12 samples.

Results

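Bone marrow-derived macrophages (BMMs) of WT mice that had received no stimulus (M0) are described here, from the 3 libraries titled WT1, WT2 and WT3 among the 12 libraries of the series. The libraries came from separate mice of one genotype group. The WT animals were 3 to 4 months old and were littermates of a myeloid Igf2bp2 knockout line, and they carried no floxed Igf2bp2 allele. WT animals could carry the Cre recombinase of the Lyz2 locus, which is active in myeloid cells, and the labels do not say whether WT1, WT2 or WT3 carried it. Marrow cells of femur and tibia were differentiated for 6 days with 50 ng/ml macrophage colony-stimulating factor (M-CSF), and untreated wells were harvested beside the wells that received IL-4. Poly(A)+ RNA was sequenced, and the measure is TPM, the abundance of a gene per length of transcript, scaled to the same total in each library. The libraries differed in a trend with transcript length, with WT1 and WT3 at opposite ends and WT2 between them, and the noncoding gene Gm42418 was high in WT3. Values are therefore given for each library. Marrow progenitors that are given M-CSF become adherent phagocytes, which clear particles and dead cells into acidic lysosomes, recover iron and lipid from them, and report danger through surface receptors and secreted chemokines. Inflammatory stimuli drive such cells towards classical activation with cytokine and nitric oxide production, and IL-4 drives them towards alternative activation, so that the untreated state is the baseline both are read against.

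The leading transcripts were the heavy and the light chain of ferritin, the shell that stores iron inside the cell. Fth1 (chromosome 19) reached 25605, 26154 and 29596 TPM in WT1, WT2 and WT3, and Ftl1 (chromosome 7) reached 26902, 24826 and 25833 TPM. The ranges of both chains overlapped, so that neither was the more abundant beyond the spread between mice, and the ratio of Ftl1 to Fth1 was 0.958 ± 0.0892 (SD, n = 3). Both mRNAs carry near their 5′ end an iron-responsive element, a hairpin through which iron regulatory proteins hold back translation when iron is short. The hairpin was searched in the 5′ untranslated stretch of GENCODE M21 coding transcripts, as a bulged C, 5 bases, the loop CAGTG followed by A, C or T, and 5 bases that pair with the first 5, G with T allowed. It was found in 23 of 20883 genes (0.110%) and in 17 of 10451 detected genes (0.163%). The elements of the chains that lead the ranking, and that of the iron exporter ferroportin (Slc40a1), are shown because they are the sequence these iron genes share, with the bulged C and the 6-base loop in capitals.
Fth1: ttcctgCttcaaCAGTGCttgaacggaac
Ftl1: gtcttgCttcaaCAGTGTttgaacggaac
Slc40a1: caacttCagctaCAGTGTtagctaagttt
All 3 elements lie in exon 1, at chr19:9982732-9982760 (plus strand), chr7:45459779-45459807 (minus strand) and chr1:45925465-45925493 (minus strand) of GRCm38. The first 5 bases of the stem are the same in both ferritin chains and differ in Slc40a1. Slc40a1 itself was modest at 41.1, 38.1 and 27.6 TPM. Ppia, the cyclophilin that ranked 11, also held the pattern, and a match is a description of letters, not of a working element.

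Among the other iron genes, the haem-degrading enzyme Hmox1 was high at 1940.2, 1759.6 and 1500.2 TPM, the endosomal metal transporter Slc11a1 (NRAMP1) reached 473, 428 and 384 TPM, the biliverdin reductase Blvrb 396, 412 and 435 TPM and the haem transporter Slc48a1 356, 340.0 and 304 TPM. Of the iron and haem list 15 of 18 genes were detected, which means a TPM of at least 1 in all 3 libraries. The share was 28.8% for all 38887 genes of the tables and 49.5% for protein-coding genes. Counts of detected genes in the lists below stand beside the same shares. The iron and haem list held 5.69% ± 0.201 (SD, n = 3) of all TPM, most of it ferritin. In CPM, which is counts scaled to the library total and not divided by length, it held 2.94%. The haemoglobin scavenger receptor Cd163 was at 0.16, 0.26 and 0.40 TPM, and the liver hormone Hamp had no count in any library, where 3 counts would have given 0.585 to 0.651 TPM.

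**Figure D1:**
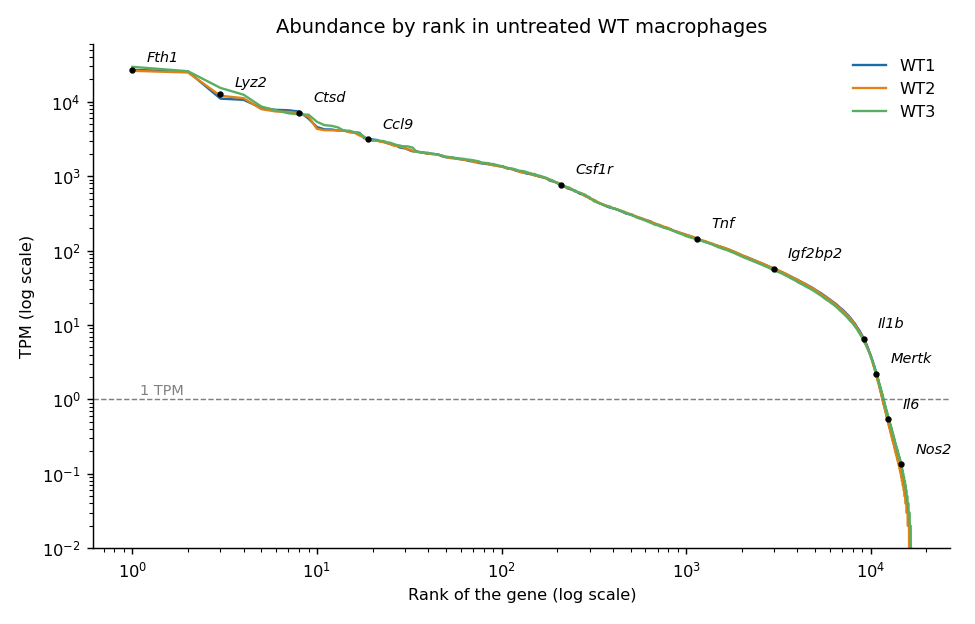
TPM of every gene (log scale) against its rank (log scale) in WT1, WT2 and WT3, 1 line per library, with 11 named genes at their mean as black points and 1 TPM as a dashed line. The 3 lines lie on each other over most of the range, Fth1 stands at the top with a mean of 27119 TPM, and Il6 and Nos2 lie under the dashed line.

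The transcriptome was concentrated in few genes. The 10 most abundant genes held 11.6%, 11.4% and 12.5% of all TPM, the 100 most abundant 30.2% ± 0.923 (SD, n = 3) and the 1000 most abundant 65.6% ± 0.891. A share of 50% of the TPM was reached with 376, 377 and 332 genes, and in CPM with 716 (mean of 3 libraries). By mean abundance, 159 genes were at 1000 TPM or more, 1586 between 100 and 1000, 6472 between 10 and 100 and 3457 between 1 and 10. In all, 11207 genes were detected, of which 10502 were protein-coding, while 20556 genes (52.9%) had no count in any library. Protein-coding genes held 97.2% ± 0.444 of the TPM. The tables hold 0 genes of the mitochondrial genome, so mitochondrial transcripts were not analysed here. Total expected counts were 29832430, 29235641 and 24942666, so that 3 counts correspond to between 0.101 and 0.120 CPM.

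Next in rank came secreted lysozyme and the machinery of protein synthesis and shape. Lyz2, which encodes the lysozyme of myeloid cells, reached 11048, 12070.2 and 15401 TPM, and was the most variable of the 25 leading genes, with a coefficient of variation of 17.7%. The second mouse lysozyme gene, Lyz1, is a near-identical copy on the same chromosome whose reads can be split with it, and it was listed at 2.79, 3.73 and 4.8 TPM. Tpt1, a translationally controlled protein of growing cells, reached 10658, 11213 and 12484 TPM. Tmsb4x, which binds actin monomers, was at 8274, 7969 and 8649 TPM, cytoplasmic actin Actb at 7413, 7335 and 7682 TPM, the elongation factor Eef1a1 at 7809, 7423 and 6791 TPM, and the aspartic protease of lysosomes Ctsd at 7713, 7041 and 6724 TPM. Osteopontin (Spp1), a secreted phosphoprotein of macrophages and bone cells, was at 5949, 6297 and 7021 TPM. Of the 24 neighbouring pairs among the 25 leading genes, 20 overlapped in their ranges. The ranges parted after Ftl1, after Tpt1, after Tmsb4x and after Spp1, so the order holds beyond the spread only at these 4 steps.

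Ranks 10 to 25 were taken by Lgals3 (4383 TPM, the mean of 3 libraries), Ppia (4328), S100a4 (4317), Ctsb (4159), Ctsl (4095), Prdx1 (3947), Actg1 (3936), Lpl (3551), Vim (3303), Ccl9 (3123), Rplp1 (3017), Hspa8 (2983), Pkm (2967), Psap (2954), Rpl41 (2798) and Gapdh (2703). They encode a galectin (Lgals3), a cyclophilin (Ppia), a calcium-binding protein (S100a4), lysosomal proteases (Ctsb, Ctsl), the precursor of saposins, which assist sphingolipid breakdown (Psap), a peroxidase (Prdx1), cytoskeletal proteins (Actg1, Vim), lipoprotein lipase (Lpl), a chemokine (Ccl9), ribosomal proteins (Rplp1, Rpl41), a chaperone (Hspa8) and glycolytic enzymes (Pkm, Gapdh). Ccl9 varied least, with a coefficient of variation of 1.84%, and the median over the 25 genes was 4.76%. In CPM, long transcripts moved up. Ctsb ranked 3, Lpl 6, Cd36 15, Gpnmb 16 and Flna 21, and 19 of the 25 genes were also among the 25 by TPM.

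**Figure D2:**
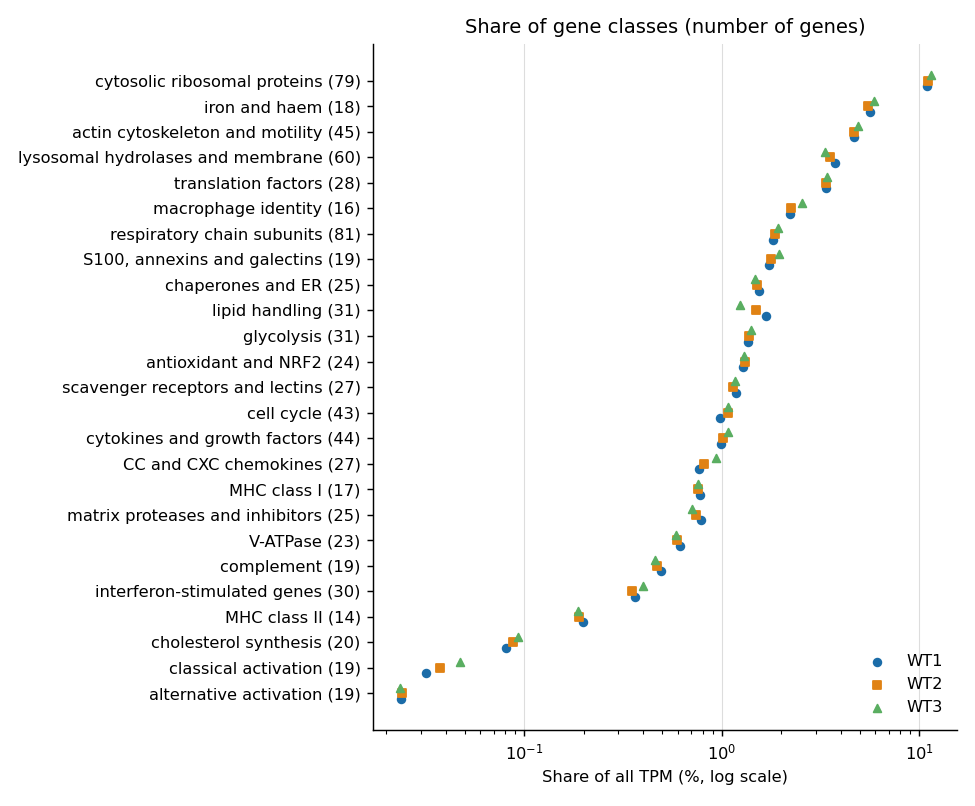
Share of all TPM (percent, log scale) held by 25 gene classes, with the number of genes in parentheses and 1 symbol for each of WT1, WT2 and WT3. Ribosomal proteins lead in all 3 libraries, iron, actin and lysosomal genes follow, and the lists of classical and alternative activation stand at the bottom.

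By TPM, ribosomal proteins were the largest of the classes listed. In CPM they held 3.93%, below lysosomal genes at 4.72% and actin genes at 4.28%, so the order turned with the division by length. All 79 cytosolic ribosomal protein genes were detected and all 79 had a mean over 100 TPM, with a median of 1379 TPM, and together they held 11%, 11.1% and 11.5% of the TPM in WT1, WT2 and WT3. The highest were Rplp1, Rpl41, Rps12 (2574, 2544 and 2521 TPM) and Rpl10 (2151, 2083 and 2239 TPM). The lowest were Rpl31 (656 TPM), Rpl37 (528) and Rpl27a (444), and processed copies of Rpl31 and Rpl27a hold the same sequence, as given with the noncoding genes. The 28 translation factors were all detected and held 3.4% ± 0.0229, led by Tpt1 and Eef1a1 and followed by the helicase Eif4a1 (1792, 1811 and 1745 TPM), the ribosomal scaffold Rack1 (1365, 1379.8 and 1487 TPM), the poly(A)-binding protein Pabpc1 (1485, 1438 and 1202 TPM) and Eef2 (1352, 1297 and 1233 TPM). The neuronal and muscle form Eef1a2 was at 10.9, 9.53 and 7.54 TPM. Of the ribosomal protein paralogs listed 5 of 8 were detected, beside 49.5% of protein-coding genes. Rpl36al was at 589, 636 and 646 TPM, and the germline form Rpl10l had no count.

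Messages of this class often start with a C followed by a run of pyrimidines, the 5′ terminal oligopyrimidine (TOP) tract through which their translation answers to growth signals. In RefSeq promoter entries of GRCm38.p6, a C at the annotated start with at least 4 pyrimidines behind it was counted. It was present in 14 of the 58 ribosomal protein genes with an entry (24.1%) and in 3 of 22 genes of the translation list (13.6%). Among all genes it was present in 813 of 27025 (3.01%), and among detected genes in 252 of 8616 (2.92%). None of the 10 macrophage identity, 49 lysosomal or 38 actin genes with an entry had it. Tracts were counted at the exact annotated base only, so a start annotated a base off was not counted. The 5 most abundant genes with the tract are shown from 10 bases before the start to 20 bases after it, with the tract in capitals.
Rps18: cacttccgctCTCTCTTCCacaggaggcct
Rpl28: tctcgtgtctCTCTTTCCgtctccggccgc
Rps6: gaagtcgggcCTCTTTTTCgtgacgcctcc
Rplp2: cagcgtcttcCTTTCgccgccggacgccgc
Rps10: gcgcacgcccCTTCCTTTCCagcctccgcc
They lie at chr17:33955646-33955675 (minus strand), chr7:4792955-4792984 (plus), chr4:86857348-86857377 (minus), chr7:141447641-141447670 (plus) and chr17:27635225-27635254 (minus). The tracts run over 9, 8, 9, 5 and 10 bases. The genes stood at 1918 to 2022 TPM, 1716 to 1929 TPM, 1725 to 1829.7 TPM, 1573 to 1685 TPM and 1523 to 1651 TPM.

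Lysosomes, where phagocytosed material is broken down, accounted for 3.76%, 3.55% and 3.34% of the TPM. Of the 60 hydrolases and membrane proteins 59 were detected, and 34 had a mean over 100 TPM. Besides the proteases Ctsd, Ctsb (4579, 4138 and 3761 TPM) and Ctsl (4264, 4116 and 3904 TPM), the list was led by prosaposin Psap (2967, 3039.8 and 2854 TPM), granulin Grn (1778, 1729.5 and 1636 TPM) and cathepsin S (1774, 1672 and 1597 TPM), the protease that trims peptides for antigen presentation. At its lower end stood Ctsf (2.74 TPM), Ctsk (3.78), the collagen-degrading cathepsin of osteoclasts, and Ctsw, a cathepsin of cytotoxic lymphocytes, which had no count. The proton pump that acidifies the lysosome was present with 19 of 23 subunits. Its pore subunit Atp6v0c reached 1438, 1413 and 1527 TPM, and the subunit Atp6v0d1 exceeded its osteoclast-type relative Atp6v0d2 (16.1, 10.1 and 6.85 TPM) by 10.6, 16.7 and 28.2 times. The kidney-type subunits Atp6v1b1 and Atp6v0a4 had no count.

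Receptors that bring material to this compartment were abundant as well. Of 27 scavenger receptors and lectins 21 were detected. Beside this count and those of Fc receptors and complement genes stands a share of 49.5% of protein-coding genes. Cd36, a receptor for oxidized lipoproteins and fatty acids, was at 2101, 1975 and 1615 TPM, Cd68 at 1699, 1491 and 1386 TPM, Clec4d at 952, 938 and 986 TPM, the lipid sensor Trem2 at 823, 738 and 709.6 TPM and Msr1 at 313, 360.0 and 317 TPM. Clec4e (Mincle) varied more, at 300.4, 421 and 574 TPM. Timd4, a receptor of tissue-resident macrophages, and Havcr1 had no count. Stab2 stood at 0.18, 0.13 and 0.22 TPM while its relative Stab1 reached 494, 466 and 442 TPM. Of the Fc receptors, which bind antibody-coated particles, 6 of 9 were detected, led by the signalling chain Fcer1g (1075, 942 and 1129 TPM) and by Fcgr3 (236, 248 and 280.2 TPM), and the inhibitory Fcgr2b was at 13.6, 22.8 and 30.1 TPM. Complement genes followed with 14 of 19 detected. The C1q chains differed, with C1qb at 1020.1, 970.0 and 953 TPM, C1qc at 550.2, 493 and 462 TPM and C1qa at 123, 124 and 121 TPM, a C1qb to C1qa ratio of 8.00 ± 0.253 (SD, n = 3).

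The actin cytoskeleton held 4.75% ± 0.109 of the TPM, with 43 of 45 genes detected. Profilin Pfn1 (2376, 2442 and 2535 TPM), cofilin Cfl1 (2293, 2289.6 and 2470.0 TPM) and the capping protein Capg (1543, 1546 and 1569 TPM) followed the actins, and Actb exceeded Actg1 by 1.90 ± 0.0208 times. Fascin Fscn1, which bundles actin in mature dendritic cells, was at 0.72, 0.69 and 1.1 TPM. The S100, annexin and galectin list was detected in full (19 of 19) at 1.81% ± 0.116, and the chains of the complement receptor Mac-1 were at 847, 803 and 729 TPM for Itgb2 and 399.6, 388 and 368 TPM for Itgam. Itgax, the chain that marks dendritic cells, was lower at 7.05, 4.86 and 4.39 TPM, so that Itgam exceeded it by 56.7, 79.8 and 83.9 times.

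Genes of both glycolysis and respiration were abundant. Of 31 glycolysis genes 24 were detected, at 1.38% ± 0.0218 of the TPM. The enzymes of the main path were Pkm (2877, 3031 and 2992 TPM), Gapdh (2801, 2712 and 2595 TPM), Aldoa (1716, 1727 and 1804 TPM), Pgk1 (1357, 1395 and 1449 TPM), Eno1 (1156, 1205 and 1255 TPM) and Ldha (1136, 1159 and 1225 TPM). Isoforms of the same step differed in level. Hk3 exceeded Hk1 by 3.05 ± 0.189 times and Hk1 exceeded Hk2 by 2.42 ± 0.0288 times, Pfkp exceeded Pfkl by 2.13 ± 0.206 times, Aldoa exceeded Aldoc by 39.9 ± 0.939 times and Ldha exceeded Ldhb by 587 ± 94.3 times (SD, n = 3). The liver, muscle and testis forms Pklr, Pgam2, Pgk2, Ldhc and Gapdhs had no count in any library. The glucose transporter Slc2a1 was at 102, 112 and 109 TPM and Slc2a6 at 14.9, 22.6 and 37.7 TPM, the latter highest in WT3. Nuclear genes of the respiratory chain were detected in 77 of 81 cases and held 1.87% ± 0.0537, led by Atp5b (1071, 1075 and 1031 TPM) and Cox4i1 (847, 889 and 873 TPM), while of the heart and skeletal muscle forms Cox7a1 was at 12.9, 13.1 and 11.9 TPM, Cox6a2 at 0.94, 0.10 and 0.58 TPM and Cox8b at no count. In CPM the share of the respiratory chain was 0.816% and that of glycolysis 1.33%, so that their order turned. All 24 genes of the TCA cycle were detected (0.334% ± 0.00417), and 7 of 8 of the pentose phosphate pathway. All 24 antioxidant genes were detected as well, at 1.29% ± 0.0138, among them Prdx1 (3839, 3904 and 4099 TPM), Gpx1 (1242, 1295 and 1419 TPM), Sod1 (856, 909 and 895 TPM) and Txn1 (732, 812 and 851 TPM), but the cystine carrier Slc7a11 was at 3.37, 3.38 and 2.17 TPM.

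Lipid genes were abundant and uneven between the mice. Of 31 genes 29 were detected, and the list held 1.67%, 1.49% and 1.23% of the TPM in WT1, WT2 and WT3, and 2.5% in CPM. Lipoprotein lipase Lpl, which frees fatty acids from triglyceride, reached 4122, 3527 and 3005 TPM, the droplet coat Plin2 2442, 2283 and 2092 TPM, the lysosomal glycoprotein Gpnmb 1993, 1749 and 1499 TPM and the acid lipase Lipa 1331, 1172 and 967 TPM. Apolipoprotein E, a carrier of cholesterol out of the cell, was at 1459, 1149 and 335 TPM, which set WT3 apart from the others. All 20 enzymes of cholesterol synthesis were detected at a low level (0.0874% ± 0.00587), with Msmo1 at 103, 111 and 116 TPM.

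The identity of the cells was checked against their defining markers. In bulk RNA, fewer cells of a type and less RNA per cell cannot be told apart. All 16 macrophage identity genes were detected, beside 49.5% of protein-coding genes. Of the 16, 13 had a mean over 100 TPM, and the list summed to 22277 to 25477 TPM. After Lyz2 came Ctss, the adaptor Tyrobp (1593, 1528 and 1509 TPM), Cd68, Fcer1g and Laptm5 (927, 836 and 732 TPM). The M-CSF receptor Csf1r reached 788, 766 and 737 TPM and the lipopolysaccharide co-receptor Cd14 726, 712 and 829.8 TPM. F4/80 (Adgre1) exceeded the efferocytosis receptor Mertk (2.63, 2.2 and 1.85 TPM) by 236 ± 4.25 times (SD, n = 3), and Mertk was the lowest gene of the list. PU.1 (Spi1), the factor that sets the myeloid lineage, was at 405, 388 and 371 TPM. In RefSeq promoter entries its binding word GAGGAAGT, read on both strands, occurred in 1 of the 10 identity genes with an entry, Ctss, against 997 of 27025 genes in all (3.69%), and in Spp1 and S100a4 among the 20 of the 25 leading genes with an entry. These windows are shown with the word, or its reverse complement, in capitals.
Ctss: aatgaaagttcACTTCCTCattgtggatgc
Spp1: caaaaccagagGAGGAAGTgtaggagcagg
S100a4: ctctattcagcACTTCCTCtctcttggtct
They lie on the plus strand of GRCm38.p6 at chr3:95526773-95526802, chr5:104434987-104435016 and chr3:90603776-90603805.

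Macrophage transcription factors were detected in 42 of 43 cases, Irf4 being the exception at 0.27, 0.34 and 0.23 TPM. Below Spi1 stood Irf5 (227, 215 and 196 TPM) and Cebpb (164, 180.2 and 217 TPM), the latter highest in WT3. The IL-4 signal transducer Stat6 was present at 161, 154 and 145 TPM, as was its receptor chain Il4ra at 34.9, 33.4 and 31.3 TPM. Immediate-early genes, which respond within minutes to handling or growth factors, were detected in 16 of 18 cases, with Fos at 235, 210.0 and 175 TPM, Atf3 at 169, 171 and 145 TPM and Junb at 120.5, 131 and 120.4 TPM, whereas Egr1 was at 2.97, 2.78 and 3.16 TPM. Of the factors and markers of tissue macrophages 7 of 19 were detected, beside 49.5% of protein-coding genes. Folr2 (265, 230.4 and 185 TPM) and Pparg (38.6, 37.8 and 33.3 TPM) were present, while Timd4, Vsig4 and Clec4f of Kupffer cells, Sall1 of microglia and Car4 of alveolar macrophages had no count.

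**Figure D3:**
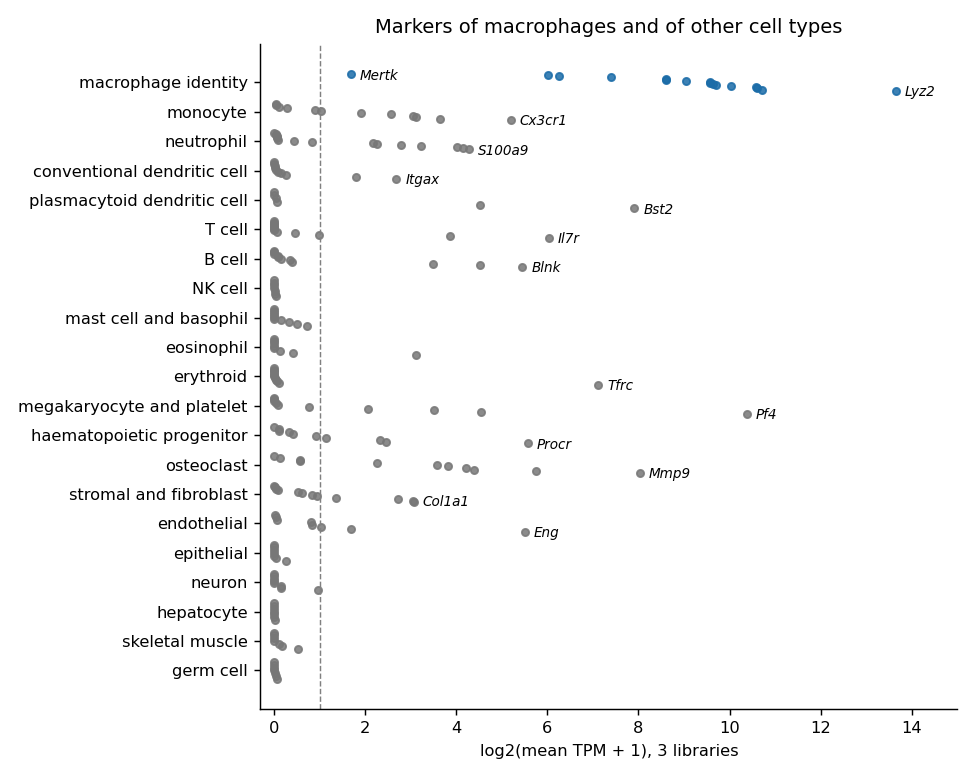
Mean of 3 libraries, as log2(TPM + 1), of each marker of macrophages (blue) and of 20 other cell types or stages (grey), 1 point per gene, with 1 TPM as a dashed line. The macrophage markers lie far to the right, Mertk excepted, and most other markers lie at or near 0, with Pf4, Bst2, Mmp9 and Tfrc as the highest exceptions.

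Markers of other cells ranged from no count to a mean of 1327 TPM for Pf4. Over 19 lists of other cell types, 38 of 176 genes were detected, beside 49.5% of protein-coding genes, and 64 of the 176 had no count in any library. For these 64, 3 counts in a library would have been between 0.0306 and 0.795 TPM, with a median of 0.159. These floors cover counting error only. T cell genes Cd3d, Cd3e, Cd3g, Cd8a and Cd8b1 had no count, although Il7r (78.7, 62.7 and 52.5 TPM) and Cd28 (12.4, 14.5 and 13.9 TPM) of the same list were present. Ms4a1 and Pax5 of B cells were also at no count, and Blnk (45.8, 43 and 39.7 TPM), Ighm (22.3, 25.1 and 18.5 TPM) and Cd79b (9.23, 10.2 and 11.5 TPM) were detected. All 7 NK cell genes, all 10 of mast cells and basophils, and the globins Hbb-bs and Hbb-bt were under the threshold, and the transferrin receptor Tfrc (156, 142 and 114 TPM), which dividing cells use too, was the detected gene of the erythroid list. Of the megakaryocyte and platelet list 4 of 10 were detected, Pf4 at 1179, 1344 and 1459 TPM, Vwf at 21.6, 20.4 and 24.8 TPM, Ppbp at 6.58, 12.1 and 12.5 TPM and Treml1 at 3.56, 3.09 and 2.89 TPM. Bst2, of the plasmacytoid dendritic cell list and also an interferon-stimulated gene, was at 261, 221 and 237 TPM. Among conventional dendritic cell genes, Flt3 and Ccr7 had no count and Zbtb46 was at 0.13, 0.24 and 0.24 TPM, and only Itgax and Batf3 were detected.

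Of 16 neutrophil genes 7 were detected, no larger a share than the 49.5% of protein-coding genes, and the list summed to 48.5 to 91.5 TPM per library. S100a9 was at 19.7, 24.6 and 10.7 TPM, S100a8 at 20.14, 18.5 and 7.16 TPM, Ngp at 9.65, 11.5 and 3.98 TPM and Ltf at 4.34, 5.3 and 1.7 TPM, all 4 lowest in WT3, whereas Mmp8 was at 13.4, 19 and 18.1 TPM, and Ly6g had no count. Monocyte genes summed to 58.4 to 86.8 TPM, with Cx3cr1 at 30.8, 32.6 and 43.5 TPM, Ccr2 at 9.04, 11.2 and 14.2 TPM and Ly6c2 at 0.59, 0.98 and 1.0 TPM. Of the progenitor genes 3 of 10 were detected, Procr at 44.5, 52 and 43 TPM, Meis1 at 3.79, 5.39 and 4.39 TPM and Gfi1b at 3.04, 4.11 and 5.01 TPM, while Kit was at 0.39, 0.21 and 0.17 TPM, Cd34 at 0.81, 1.03 and 1.78 TPM and Myb at 0.38, 0.38 and 0.26 TPM. Of the stromal and fibroblast list 4 of 12 were detected, among them the collagen Col1a1 at 11, 5.2 and 5.73 TPM, while Dcn was at 0.74, 0.42 and 0.43 TPM, Pdgfra at 0.05, 0.08 and 0.07 TPM and Lum at no count. Of 8 endothelial genes 2 were detected, Eng at 45.8, 42 and 45 TPM and Kdr at 2.14, 1.99 and 2.54 TPM, while Cdh5 was at 0.77, 0.91 and 0.67 TPM. Of the osteoclast list 7 of 11 genes were detected, with Mmp9 at 320.4, 239.5 and 223 TPM and the RANK receptor Tnfrsf11a at 58.3, 56.1 and 43 TPM, but Ctsk was at 3.14, 3.78 and 4.43 TPM and Calcr had no count. Over the 5 lists of epithelium, neuron, liver, skeletal muscle and germ cells 0 of 36 genes were detected. Part of the other lists is shared with macrophages, such as Pf4 and Bst2, and what cells the low markers came from was not tested. Xist, the noncoding RNA of the inactive X chromosome, was at 222, 229.9 and 185 TPM, and the Y-linked genes Ddx3y, Uty, Kdm5d and Eif2s3y had no count in any of the 3 libraries. Gm47283, a gene model annotated on chromosome Y, was at 0.22, 158 and 175 TPM, and where its reads came from was not tested.

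Of 27 CC and CXC chemokines 17 were detected, beside 49.5% of protein-coding genes. The list held 0.764%, 0.816% and 0.937% of the TPM, and 0.429% in CPM. Ccl9, which attracts dendritic cells and osteoclast precursors, was at 3079.7, 3188 and 3102 TPM, the monocyte attractant Ccl2 at 1412, 1529 and 1991 TPM, Pf4 at 1179, 1344 and 1459 TPM, Ccl6 at 652, 768 and 1074 TPM, Ccl7 at 494, 511 and 774 TPM, Ccl3 at 307, 293 and 330.3 TPM and Ccl4 at 195, 179 and 252 TPM. Of these, Ccl9 was highest in WT2 and the others were highest in WT3. The IL-4 and dendritic cell chemokine Ccl17 had no count, and the interferon-induced Cxcl9 was at 0.06, 0.04 and 0 TPM while Cxcl10 was at 26.4, 30.01 and 26.6 TPM. Promoters of chemokine genes held the TATA word TATAAA, read on the strand of the gene, within 250 bases before the start in 8 of 20 cases (40%), against 8.94% of 27025 genes and 4.24% of 8616 detected genes, and 6 of 20 of the leading genes with an entry held it too. The words of 2 chemokines and 2 leading genes that lie near the distance from the start usual for a TATA box are shown in capitals, together with the more distant one of Ccl9.
Ccl12: gtgtctTATAAAagtcagatggaacttcca
Cxcl3: atcatgTATAAAaggggttcgcagggccct
Vim: cagtgtTATAAAagcagcgcccttggcgtt
S100a4: gcagggTATAAAtaggtcagattgttgggc
Ccl9: gaatttTATAAAaggagaaatccttctgga
The word begins 31, 30, 32, 31 and 92 bases before the annotated start, in windows at chr11:82101808-82101837 (plus strand), chr5:90786065-90786094 (plus), chr2:13574273-13574302 (plus), chr3:90603733-90603762 (plus) and chr11:83578705-83578734 (minus) of GRCm38.p6. Of these chemokines, Ccl12 was at 18.2, 21.1 and 32.7 TPM and Cxcl3 at 14.3, 22 and 27.8 TPM.

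**Figure D4:**
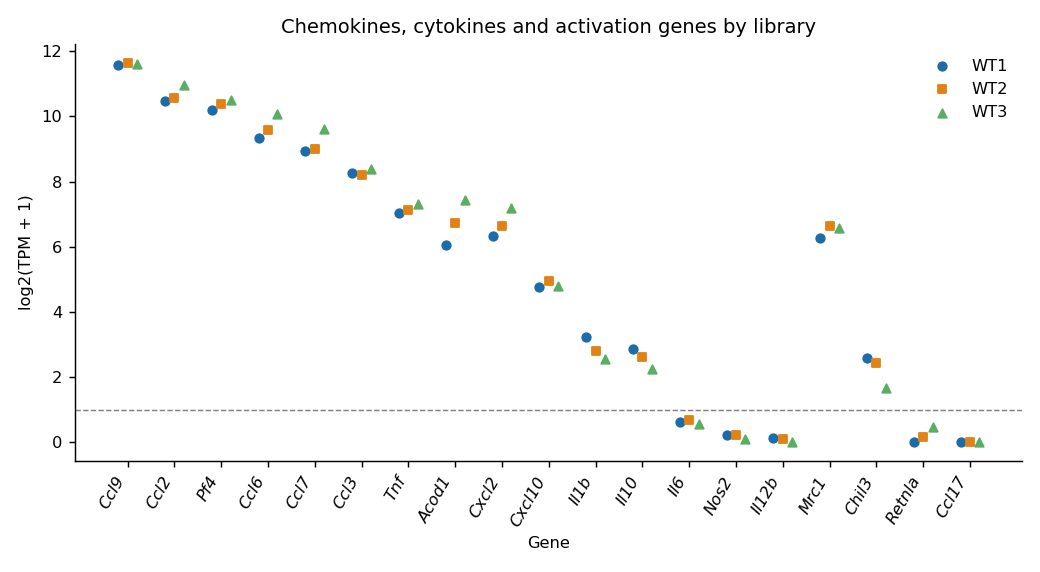
log2(TPM + 1) of 19 chemokines, cytokines and activation genes, 1 symbol for each of WT1, WT2 and WT3, with 1 TPM as a dashed line. Chemokines lie at the top, Tnf and Acod1 in the middle, and Il6, Nos2, Il12b, Retnla and Ccl17 under the line.

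Genes of both activation programs were detected in part, beside 49.5% of protein-coding genes at large. Of 19 classical activation genes 12 were detected (0.0319%, 0.0375% and 0.0475% of the TPM), and of 19 alternative activation genes 9 (0.0238% ± 0.000295). Tnf had the highest mean of the first list, at 131, 138 and 159.6 TPM. Acod1, which makes itaconate, followed at 65.3, 105 and 174 TPM and exceeded Tnf in WT3. For both Tnf and Acod1, WT3 was the highest library and WT1 the lowest. By contrast Il1b was at 8.46, 5.94 and 4.92 TPM and Ptgs2 at 5.07, 4.76 and 5.28 TPM, and Il6 (0.54, 0.60 and 0.47 TPM), Nos2 (0.16, 0.16 and 0.08 TPM) and Il12b (0.10, 0.07 and 0 TPM) were below 1 TPM, so that Tnf exceeded Il6 by 271 ± 59.8 times (SD, n = 3). Il12a and Il23a had no count. On the alternative side Mrc1 (CD206) was at 75.9, 99.5 and 94.7 TPM, Tgm2 at 61.4, 46.3 and 36.6 TPM, Clec10a at 11.2, 16 and 21.3 TPM and Chil3 at 5.04, 4.37 and 2.16 TPM. Retnla was at 0, 0.12 and 0.39 TPM, where 3 counts are 0.35 to 0.391 TPM.

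Few other secreted factors were abundant. Beside 49.5% of protein-coding genes, 25 of 44 cytokines and growth factors were detected and 6 had a mean over 100 TPM, led by Spp1, Grn, Igf1 (798, 717 and 645 TPM), Mif (580.1, 574 and 618 TPM) and Tgfb1 (289, 287 and 289.6 TPM), and among the genes with no count were Ifnb1, Ifng and Il13. Il10 was at 6.27, 5.14 and 3.73 TPM and the IL-1 antagonist Il1rn at 30.7, 26 and 29.4 TPM. The cells transcribed little of their own growth factor, as Csf1 was at 5.09, 4.71 and 5.37 TPM and its receptor Csf1r exceeded it by 152 ± 13 times. Of 32 cytokine receptors 24 were detected. Csf1r exceeded Csf2ra, the receptor chain for GM-CSF, by 5.36 ± 0.290 times. Chemokine and related receptors were detected in 13 of 25 cases, a share near that of protein-coding genes, and were led by the C5a receptor C5ar1 (623, 631 and 668 TPM) and P2ry6 (179, 169 and 164 TPM). Pattern receptors and sensors were detected in 24 of 25 cases, among them Tlr13 (208, 179.6 and 146 TPM), Tlr2 (112, 136 and 129 TPM), Tlr4 (39.95, 37.6 and 32.5 TPM) and Nlrp3 (66.1, 69.6 and 65.7 TPM), with Tlr5 lowest at 0.87, 1.17 and 1.1 TPM. Matrix proteases and inhibitors were detected in 18 of 25 cases, headed by Adam8 (2219.8, 2035 and 1761 TPM), Plau (625, 525 and 431 TPM) and Mmp12 (573, 496 and 501 TPM).

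Antigen presentation genes were given by class. All 17 genes of the class I pathway were detected (0.767% ± 0.0101), with B2m at 2699.9, 2581 and 2715 TPM, H2-D1 at 1505, 1504 and 1502 TPM and H2-K1 at 937, 930.5 and 963 TPM. Class I genes are near-identical copies of one another, so reads can be split between them. Of 14 genes of the class II pathway 9 were detected, beside 49.5% of protein-coding genes. The highest were the protease Ctss and the thiol reductase Ifi30 (119, 137 and 138 TPM), which process antigen. Of the class II chains, H2-Aa was at 6.26, 6.84 and 12.7 TPM, H2-Ab1 at 5.77, 4.47 and 9.53 TPM, H2-Eb1 at 3.3, 5.21 and 8.91 TPM and the invariant chain Cd74 at 43.1, 35.3 and 63.8 TPM, each highest in WT3, and their master regulator Ciita was at 0.06, 0.05 and 0.08 TPM. Of the co-stimulatory genes Cd40 was at 15.8, 16.6 and 19.7 TPM, Cd80 at 11.4, 10.1 and 10.2 TPM and Cd86 at 2.7, 3.46 and 4.61 TPM, and the phagocytosis checkpoint Sirpa reached 709, 637 and 579 TPM. Interferon-stimulated genes were detected in 28 of 30 cases with a median of 14.2 TPM. Ifitm3 (2068, 2187 and 2529 TPM) and Ifi27l2a (515, 335 and 402 TPM) stood high, and Mx1 (2.87, 3.35 and 3.04 TPM) and Usp18 (3.92, 5.02 and 4.95 TPM) did not.

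The resting macrophages carried transcripts of cell cycle genes. These RNA levels do not measure division, and the paper describes its BMMs as non-proliferative in the culture of its migration assays. All 43 cell cycle genes were detected, with a median of 91.5 TPM and a sum of 9800.5 to 10771 TPM. The replication clamp Pcna was at 1456, 1389 and 1168 TPM, cyclin D1 at 543, 518 and 492 TPM, Top2a at 309, 367 and 354 TPM, Mki67 at 99.6, 109 and 98.5 TPM and Cdk1 at 189, 233 and 266 TPM. The members differed in which library was high or low. Of the genes that act in mitosis, Ube2c was at 132, 195 and 263 TPM, Ccnb1 at 103, 148 and 149 TPM and Cdc20 at 41.8, 65.7 and 84.2 TPM, each lowest in WT1. Of the replicative helicase, Mcm6 was at 250.2, 229 and 177 TPM and Mcm5 at 162, 163 and 132 TPM, both lowest in WT3. Long genes were lower in WT3 in general, and the part of length here was not tested. The inhibitor Cdkn1a was steady at 449, 454 and 454 TPM. Chaperones were detected in 24 of 25 cases, with Hspa8 at 3242, 2886 and 2822 TPM and heat-inducible Hspa1a at 5.49, 7.04 and 9.64 TPM, and proteasome core genes in 18 of 19 cases, the constitutive Psmb5 exceeding the immune Psmb8 by 1.44 ± 0.0596 times. The 15 reference genes in common use were all detected and held 2.43% ± 0.0213.

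Of the IGF2BP family, which binds and stabilizes mRNAs and of which the study deletes the second member, Igf2bp2 was at 70.1, 58.3 and 42.1 TPM, Igf2bp3 at 6.81, 7.22 and 6.54 TPM and Igf2bp1 at 0.16, 0.18 and 0.21 TPM. Igf2bp2 exceeded Igf2bp3 by 10.3, 8.08 and 6.43 times. The m6A methylation partner Wtap led the wider list at 123, 131 and 128 TPM, the methyltransferase Mettl3 was at 33.2, 37.4 and 34.2 TPM and the reader Ythdf2 at 67.9, 69 and 70.4 TPM, and Lin28a and Lin28b had no count. Of the MS4A family 5 of 11 were detected, beside 49.5% of protein-coding genes. Ms4a7 (349, 287 and 229 TPM) and Ms4a6d (123, 118 and 118 TPM) were the highest.

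The leading noncoding genes were mostly copies of other genes. The highest by mean was the lincRNA gene Gm42418, which overlaps ribosomal RNA sequence, at 1115, 847 and 5394 TPM, and it led in WT3 only. In WT1 and WT2 it lay below Gm13341 (1639, 1677 and 2022 TPM), Gm13340 (1504, 1431 and 1638 TPM) and Gm10222 (1463, 1470.0 and 1277 TPM), which share sequence with mitochondrial genes. Of all runs of 31 bases (words) in these 3 pseudogenes, 48.0%, 45.2% and 100% occur in mitochondrial transcripts of GENCODE M21, mt-Co2, mt-Co1 and mt-Nd4l sharing the most. Processed pseudogenes showed the same with nuclear genes. All words of Gm7536 (1065, 1107 and 1177 TPM) occur in Rpl27a, all words of Gm10221 (570.2, 563 and 633 TPM) in Atp5l, all of Gm12481 (534, 584 and 629.9 TPM) in Serf2 and all of Rpl31-ps8 (423, 488 and 665 TPM) in Rpl31. Gm10177 (261, 262 and 304 TPM) shares 94.2% of its words with Sec61g, which was itself at 3.23, 2.48 and 6.37 TPM. Reads from the shared words cannot be told apart here, and the values of both partners are uncertain to that extent. Gm26377, a miRNA gene at 1166, 505 and 825 TPM, has an effective length of 24.2 nt, so that each count weighs heavily in TPM. Of the other long noncoding RNAs listed, Neat1, the scaffold of paraspeckles, was at 1019, 921 and 922 TPM, Gas5 at 373, 390.1 and 337 TPM and Malat1 at 197, 179 and 156 TPM, and the imprinted Meg3, Rian and Mirg had no count.

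The 3 libraries were close to each other. Pearson r of log2(TPM + 1) was taken across the 38887 genes, which are not independent replicates and of which 20556 had no count. It was 0.997 for WT1 and WT2, 0.993 for WT1 and WT3 and 0.994 for WT2 and WT3. The rank correlation (Spearman rho) of the 11207 detected genes was 0.995, 0.987 and 0.991 for the same pairs. Among the 8217 genes with a mean of at least 10 TPM, the range of log2(TPM + 1) over the libraries had a median of 0.19 and exceeded 1 in 80 genes (0.974%). That number was 19 without WT3, 54 without WT1 and 68 without WT2. Among the 1745 genes with a mean of at least 100 TPM, 12 exceeded 1. The steadiest of the 1745 in TPM were Sec11a (181, 180.3 and 180.4 TPM), H2-D1 and Cd300lb (144, 144 and 145 TPM). Smim15 (105 TPM in each library), Snrpa1 (113, 112 and 112 TPM) and Litaf (144 TPM in each library) followed. Then came Rpl22 (849, 852 and 847 TPM) and Selenot (129.7, 129 and 129 TPM). Preb (165, 164 and 165 TPM) and Flna (987, 993 and 995 TPM) came last. In CPM Flna was not steady, at 2756, 2567 and 2284 in WT1, WT2 and WT3.

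The 10 genes of widest range were Gm3699, Gm10736 and Gm10180 (each 0, 0 and 194 TPM), Gm47283 (annotated on chromosome Y, 0.22, 158 and 175 TPM), Gm14287 (88.7, 132 and 0 TPM), Gm22357, Gm22589, Scarna17, Gm15432 and Rny3. Of these, 9 are processed pseudogenes or small RNAs with a mean effective length of 0.503 to 111 nt. When 7956 protein-coding genes with an effective length of at least 200 nt were taken, a choice made after the data were seen, 28 had a range over 1. The annotated genes among them included Apoe, Lars2 (128, 88.4 and 371 TPM), Hist1h1c (15.4, 22.1 and 46.4 TPM), Hist1h2ap (159, 274 and 424 TPM), Acod1, S100a8, Slc2a6, Nptx1 (168, 116 and 69.1 TPM), Rnase6 (5.9, 11.3 and 15 TPM) and Fcgr2b. Apoe and Nptx1 were lowest in WT3, and Lars2, Acod1 and both histone genes were highest there, as Gm42418 was.

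**Figure D5:**
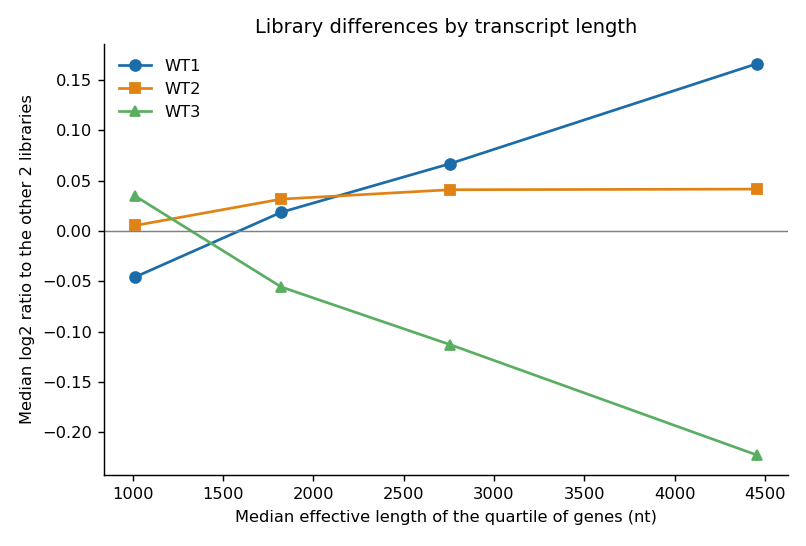
Median log2 ratio of each library to the mean of the other 2 against the median effective length (nt) of 4 equal groups of 1989 protein-coding genes with a mean of at least 10 TPM, 1 line each for WT1, WT2 and WT3. WT1 lies above 0 and WT3 below 0 for the longest genes, and WT2 stays between 0.01 and 0.04.

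The libraries differed with transcript length. In WT3 the median log2 ratio to the mean of the other libraries was 0.03 for the shortest of the 4 groups of genes (median effective length 1015 nt) and -0.22 for the longest (4459 nt). In WT1 the same values were -0.05 and 0.17, and in WT2 0.01 and 0.04. Over 2-fold from the mean of the other libraries were 9 of 7956 genes in WT1 (0 higher, 9 lower), 5 in WT2 (0 higher, 5 lower) and 13 in WT3 (8 higher, 5 lower). Ribosomal proteins and chemokines had their highest share in WT3, and lysosomal and lipid genes had theirs in WT1. The part of transcript length in these differences was not tested.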

How the data were processed

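Libraries were poly(A)-selected, strand-specific and read for 75 nt from a single end. The authors processed the reads with Grape-nf against GRCm38/mm10 and deposited, for each library, expected counts per gene (estimated counts in which reads that match several genes are divided), TPM in a maximum-likelihood and a posterior mean version, and gene lengths in nucleotides. The submitters' processing notes also name FastQC 0.11.2 and DESeq2 1.40.2, and the deposited DESeq2 tables, which hold the authors' fold changes and p-values, were not used here. The maximum-likelihood TPM of the 3 untreated WT libraries, assigned by title, was analysed as deposited. No groups were compared and no test was run, so values are given per library or as mean ± SD. Depth was 24942666 to 29832430 expected counts, and floors of 3 counts cover counting error only. Annotation came from GENCODE M21 on GRCm38, in which 1317 of 38887 genes had no match and are given by ID, and promoters came from RefSeq (GRCm38.p6). A symbol shared by several genes was read from the most abundant. Of the members of 63 gene lists, 14 had no row under their symbol.

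Members and lists were chosen with earlier results of these data known. Named genes are the 25 most abundant, up to 6 leading members of a list with the lowest members of lists for absent functions, every IGF2BP member, 10 noncoding genes and 10 genes each of widest and narrowest range, and others were picked after their values were seen. The search for iron-responsive hairpins and for shared words was added after the data were seen. Python 3.11.15 with numpy, pandas and scipy was used, and functions were tested on simulated data. Alternatives were the posterior mean TPM, CPM, protein-coding genes only, genes of at least 200 nt, other thresholds and pseudocounts, and leaving out each library. Some members of the lists are not reported here by name.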

Additional observations from a re-analysis of the deposited data

How the results depend on the processing

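No paired analysis was possible because the values come from no test and from 1 group. The 25 most abundant genes kept 25 of 25 members under the posterior mean, the protein-coding denominator, the removal of short genes and the median, 24 to 25 when a library was left out, and 19 in CPM. The number of detected genes stayed within 1.5 times of 11207 throughout, from 7898 at a threshold of 10 TPM to 15436 with the posterior mean, which gives a value above 0 to genes without reads. The posterior mean moved the share of the 1000 most abundant genes to 63.7%, the genes that hold 50% to 401, ribosomal proteins to 10.9%, actin genes to 4.61% and glycolysis to 1.34%. With protein-coding genes only, ribosomal proteins were at 11.5%, actin at 4.89%, the respiratory chain at 1.93% and glycolysis at 1.42%. CPM, which weighs long transcripts more by construction, gave 8.48%, 23.1% and 56.1% for the 10, 100 and 1000 most abundant genes and 716 genes for 50%. It also gave 3.93% for ribosomal proteins, 2.94% iron, 4.28% actin, 4.72% lysosome, 0.816% respiratory chain, 1.33% glycolysis, 2.50% lipid, 0.429% chemokines and 1.20% cell cycle. The number of genes with a range over 1 was 80, and it was 385 with a filter at 1 TPM, 582 with no filter, 42 in CPM and 28 among protein-coding genes of at least 200 nt. When a library was left out it lay between 19 (without WT3) and 68, and the median SD, 0.10 in log2 over all 3, between 0.0564 (without WT3) and 0.11. With no filter that SD was 0, since most genes have no counts. Depth limits statements on genes near the floor of 3 counts, which for the absent markers lay between 0.0306 and 0.795 TPM and is higher for short genes.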
